A study of Mus musculus with 14 samples.

Results

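The LIM homeobox genes are a family of developmental transcription factor genes, and 10 of them were examined for RNF2 and BAP1 binding in mouse embryonic stem cells: Lhx1, Lhx2, Lhx3, Lhx4, Lhx5, Lhx6, Lhx8, Lhx9, Isl1 and Isl2. The genes were picked by family name, with earlier results of these data known, from 21779 protein-coding genes in the RefSeq table of GRCm38.p6. Every peak within the gene span plus or minus 5 kb was counted to a gene, and this stretch is called its window. RNF2 (RING1B) is the E3 ligase of Polycomb repressive complex 1 and places ubiquitin on histone H2A, and BAP1 is the deubiquitinase that removes it.

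The cells were embryonic stem cells of C57BL/6 background, with an age of E3.5-4.5 days in the labels. All of them, controls included, had received 100 nM 4-hydroxytamoxifen (4-OHT) and 10 µM of the caspase inhibitor emricasan over 4 days. For RNF2 there were 2 ChIP-seq libraries of wild-type cells, 2 of BAP1 knockout and 1 of RNF2 knockout cells. For BAP1 there was 1 library of BAP1-C91A cells, whose BAP1 lacks the cysteine of its active site, and 1 of BAP1 knockout cells as a control. The protocol writes the C91A genotype as Bap1C91A/-, so these cells have no wild-type copy, and it names an additional crosslinker, disuccinimidyl glutarate, for them and not for the BAP1 knockout control. The labels do not say whether a line was 1 clone, what the 4-OHT acted on, or whether replicates were separate cultures, so differences between replicates may be technical. The unnumbered library of each RNF2 genotype is called the first and the one labelled rep2 the second; the first pair is the first library of each genotype.

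LIM homeodomain proteins carry a pair of zinc-binding LIM domains and a DNA-binding homeodomain. The LIM domains bind the cofactor LDB1, which joins these factors into larger complexes, and the combination of LIM homeodomain proteins in a cell helps to set neuron types, among them the spinal motor neurons. Outside the nervous system, members act in the pituitary, gonad, kidney, heart and limb. In embryonic stem cells genes of this kind are known as Polycomb targets, with Polycomb complexes spread over CpG-rich DNA.

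The libraries differed in depth and in how peaks were called. Filtered tags numbered 58.4 M in the first and 149 M in the second wild-type library, and 54.1 M and 139 M for BAP1 knockout. The first libraries were called with MACS2 version 2.1.0.20150420 and the second with 2.1.1.20160309, and the lists held 4038 and 28770 peaks in wild type and 7946 and 39872 in BAP1 knockout. The RNF2 knockout list, from 119 M tags, held 0 peaks. RNF2 lay in both wild-type libraries at 1 of 10 pluripotency markers (Esrrb) and at 3 of 10 fibroblast markers (Thy1, Twist1 and Twist2), where 14.5% of all protein-coding genes were occupied. In the second wild-type library the counts were 4 and 6, against 58.8% of all protein-coding genes. BAP1 knockout gave 1 and 3 in its first list, against 29.6%, and 7 and 6 in its second, against 66.6%. RNF2 peaks do not measure expression and these counts do not separate the lists, so the labelled cell type could not be checked.

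The DNA just before the listed starts of these genes ranged from CpG-poor to CpG-dense. RefSeq promoters of GRCm38.p6 were matched for 9 of the 10 genes (13 listed starts); Lhx5 had no entry. The 5 sequences that follow are the 250 bases before a start, written 5′ to 3′ on the gene's strand with every CpG in capitals. They were chosen because they cover the range of CpG count and the genes on which the BAP1 results turn: Isl1 has the most CpGs, Lhx8 the fewest together with Lhx9, Lhx1 is CpG-dense under a BAP1 peak, and Lhx3 is the only gene without BAP1.
Isl1 (chr13:116309689-116309938, minus strand): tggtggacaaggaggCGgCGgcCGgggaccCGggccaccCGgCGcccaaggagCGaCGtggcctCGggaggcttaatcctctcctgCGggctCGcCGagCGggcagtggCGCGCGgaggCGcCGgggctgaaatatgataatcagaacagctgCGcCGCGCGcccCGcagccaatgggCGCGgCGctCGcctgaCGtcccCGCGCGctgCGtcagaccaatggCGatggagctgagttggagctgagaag
Lhx1 (chr11:84525535-84525784, minus strand): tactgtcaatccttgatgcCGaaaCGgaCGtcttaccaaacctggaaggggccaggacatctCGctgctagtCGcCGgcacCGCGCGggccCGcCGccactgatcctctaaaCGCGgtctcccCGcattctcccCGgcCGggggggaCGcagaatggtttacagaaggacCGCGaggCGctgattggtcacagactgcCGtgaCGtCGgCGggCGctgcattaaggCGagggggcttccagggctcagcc
Lhx3, inner start (chr2:26206576-26206825, minus strand): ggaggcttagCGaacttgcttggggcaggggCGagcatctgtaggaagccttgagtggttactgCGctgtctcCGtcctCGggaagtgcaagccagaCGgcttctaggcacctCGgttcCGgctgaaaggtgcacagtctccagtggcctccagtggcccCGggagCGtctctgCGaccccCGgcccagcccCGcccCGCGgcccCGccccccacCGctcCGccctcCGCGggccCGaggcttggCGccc
Lhx3, outer start (chr2:26208250-26208499, minus strand): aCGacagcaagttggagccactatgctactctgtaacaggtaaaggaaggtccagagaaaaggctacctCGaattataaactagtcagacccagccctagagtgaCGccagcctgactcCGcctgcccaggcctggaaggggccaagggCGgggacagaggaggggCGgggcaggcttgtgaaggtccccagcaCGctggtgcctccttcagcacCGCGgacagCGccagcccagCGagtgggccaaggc
Lhx8 (chr3:154330561-154330810, minus strand): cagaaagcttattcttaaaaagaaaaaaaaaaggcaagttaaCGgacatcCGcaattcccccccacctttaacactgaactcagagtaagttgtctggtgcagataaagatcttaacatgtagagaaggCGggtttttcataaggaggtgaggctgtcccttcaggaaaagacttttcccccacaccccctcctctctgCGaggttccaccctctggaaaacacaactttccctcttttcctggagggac

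Isl1 held 33 CpGs in these 250 bases, Lhx1 26, the inner and outer starts of Lhx3 22 and 11, and Lhx8 4. The CpG count (motif CG, which reads the same on both strands) had a median of 16 over the 13 promoters and of 10 over all 21263 promoters of protein-coding genes in the table, of which 93.4% held at least 1 CpG. Of the 13, 10 lay above that median. The GC content had a median of 64.8% against 55.6%. RNF2 peaks of all 4 libraries overlapped 11 of the 13 promoters, against 7.28% of all 21263, and the exceptions were the starts of Lhx3. Lhx8 and Lhx9, with 4 CpGs each, were under RNF2 in all 4 libraries like the CpG-dense Isl1. The only listed start of Lhx9 (138842444, minus strand) lies inside its gene span, which ends at 138848839. The bases before that outer end were not examined. The only listed starts of Lhx4 and Isl2 are likewise internal. A CpG count describes the sequence and does not show what recruits a protein.

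**Figure D1:**
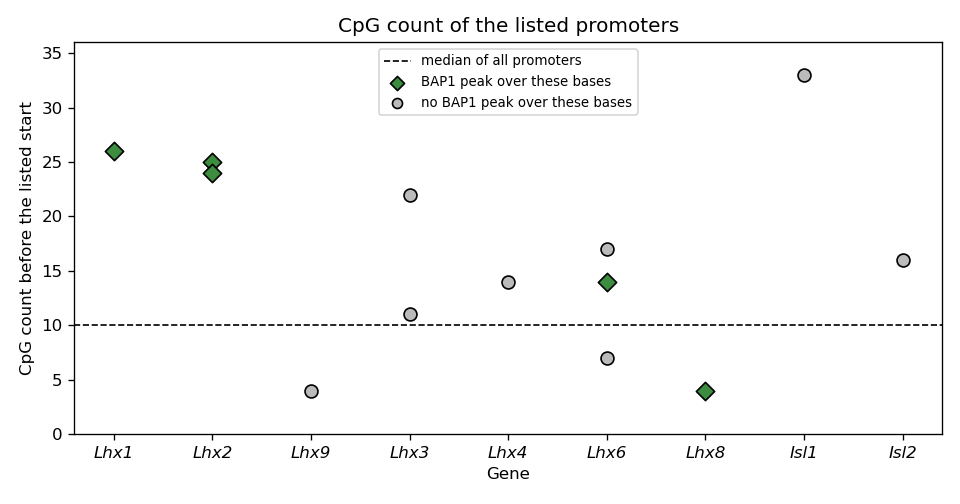
CpG count in the 250 bases before each listed start (y axis) for the 9 genes with a RefSeq promoter (x axis), 1 point a start, with the median of all promoters (10) as a dashed line. Green diamonds carry a BAP1 peak of C91A cells in these bases. Counts run from 4 at Lhx8 and Lhx9 to 33 at Isl1, and BAP1 lay over both a CpG-dense (Lhx1, 26) and a CpG-poor promoter (Lhx8, 4).

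RNF2 covered every one of the 10 genes in every wild-type and BAP1 knockout library. A peak of both wild-type libraries lay in the window of 10 of 10 genes, and of 14.5% of protein-coding genes. Taken singly, the lists reached 14.5% (first wild type), 58.8% (second wild type), 29.6% (first BAP1 knockout) and 66.6% (second BAP1 knockout) of these genes. In all 4 libraries the count was again 10 of 10, against 14.2%. The RNF2 knockout library had 0 peaks there. Covered length, the number of bases in the window under RNF2 peaks, had a median over the 10 genes of 11.1 kb in the first and 16.3 kb in the second wild-type library. The other 3072 genes with RNF2 in all 4 libraries had medians of 1.06 and 3.51 kb. By mean wild-type length, Lhx2 (22.7 kb), Isl1 (19.8 kb) and Lhx1 (16.2 kb) came first, followed by Lhx4 (14.7 kb), Lhx5 (14.2 kb), Lhx9 (12.9 kb), Lhx6 (12.0 kb), Isl2 (10.1 kb) and Lhx8 (9.30 kb), and Lhx3 (4.56 kb) came last. The wild-type values of neighbours in that order overlapped, except between Isl1 and Lhx1 and between Lhx8 and Lhx3. Lhx3 was longer than 80.4% and Lhx2 than 98.9% of the 3082 genes with RNF2 in all 4 libraries. Windows differ in length: Lhx4, in the longest one (63.7 kb), was covered over 18.0% to 28.2% of it, and Lhx1, in the shortest (17.6 kb), over 85.4% to 99.5%.

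**Figure D2:**
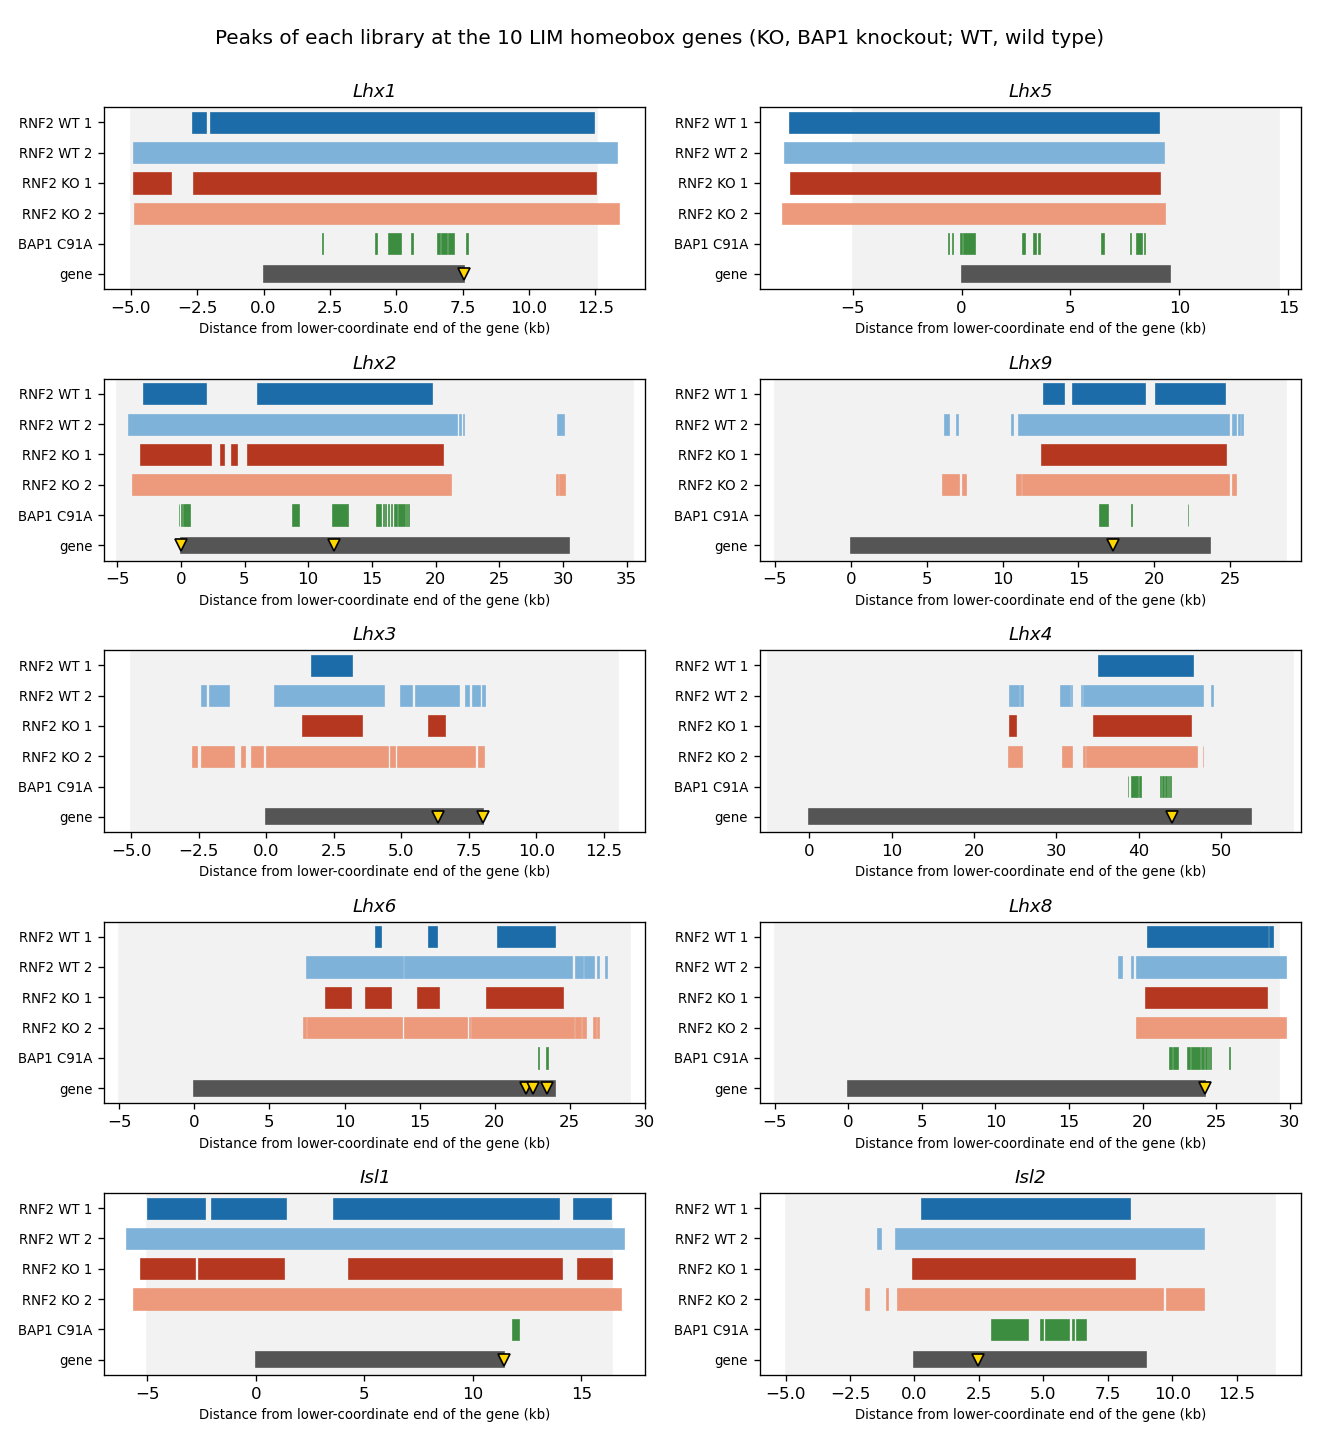
Peaks of the 4 RNF2 libraries (blue, wild type; red, BAP1 knockout) and of BAP1 in C91A cells (green) at each gene, drawn to scale against the distance in kb from the end of the gene with the lower coordinate (x axis, a different range in each panel). Grey boxes are gene spans, yellow triangles the listed starts and the shaded area the window; peaks have a thin outline, so the narrowest gaps are not resolved. Lhx5 holds 1 RNF2 peak with nearly the same ends in all 4 libraries. The widest RNF2 peak of Lhx3 is shorter than that of any other member in each library, and Lhx3 has no BAP1.

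Lhx1 and Lhx5 form 1 subfamily. Lhx1 (gene ID 16869, chromosome 11, 84517975 to 84525534) acts in the head organizer, kidney and motor neurons, and Lhx5 (gene ID 16873, chromosome 5, 120431886 to 120441457) in the forebrain. Lhx1 had a covered length of 15.0 and 17.5 kb in the wild-type libraries and of 16.6 and 17.5 kb in the BAP1 knockout libraries. Its RNF2 peak ran past the start into Lhx1os, a long noncoding RNA gene that begins 5′ of it. Lhx5 had 14.1 and 14.3 kb in the wild-type libraries and 14.1 and 14.3 kb in the BAP1 knockout libraries, and so hardly varied. A single unbroken peak of 16992 to 17583 bp covered the upstream side and nearly all of Lhx5 in each of the 4 lists. Its lower end moved by 382 bp and its upper end by 274 bp between libraries, the least of all 10 genes at both ends. This peak extended beyond the window, over the neighbouring noncoding genes Gm27199 and Gm31976.

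Lhx2 and Lhx9 are the next subfamily. Lhx2 (gene ID 16870, chromosome 2, 38339271 to 38369737) is needed for the eye and the cerebral cortex, and Lhx9 (gene ID 16876, chromosome 1, 138825186 to 138848839) for the gonad. Lhx2 had the longest coverage of the 10 genes in all 4 libraries, with 18.7 and 26.6 kb in the wild-type libraries and 21.7 and 25.6 kb in the BAP1 knockout libraries. In the first wild-type library it fell into 2 peaks, 1 over each listed start, and in the second a single peak of 25789 bp spanned both starts. That peak ranked 17 by length among the 28770 of its list. Lhx9 had 10.7 and 15.1 kb in the wild-type libraries and 12.1 and 15.6 kb in the BAP1 knockout libraries. Both BAP1 knockout values of Lhx9 were above the wild-type value of the same number, but the first was below the second wild-type value.

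Lhx3 and Lhx4 act in the pituitary and in motor neurons, and their mean wild-type lengths were 4.56 and 14.7 kb. Lhx3 (gene ID 16871, chromosome 2, 26200212 to 26208249) had 1.51 and 7.62 kb in the wild-type libraries and 2.82 and 9.74 kb in the BAP1 knockout libraries. Lhx4 (gene ID 16872, chromosome 1, 155698031 to 155751726) had 11.5 and 18.0 kb in the wild-type libraries and 12.7 and 16.7 kb in the BAP1 knockout libraries. Lhx3 was thus the lowest of the 10 genes in the first libraries and in the second wild-type library. In the second BAP1 knockout library Lhx8 (9.70 kb) was slightly lower. The strongest RNF2 peak of Lhx3 lay inside the gene, with its summit 4075 to 4159 bp downstream of the inner start in all 4 libraries. Over the bases before the inner start (22 CpGs, printed above) RNF2 was listed in the second wild-type and both BAP1 knockout libraries. Before the outer start (11 CpGs) it was listed in the second library of each genotype only.

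Lhx6 and Lhx8 direct forebrain neurons, Lhx6 the cortical interneurons and Lhx8 the cholinergic neurons, and Lhx8 also acts in the oocyte. Lhx6 (gene ID 16874, chromosome 2, 36081950 to 36105992) had 4.93 and 19.1 kb in the wild-type libraries and 10.1 and 18.7 kb in the BAP1 knockout libraries. Its second wild-type value was 3.88 times the first, a ratio exceeded only by Lhx3 (5.06). In the first libraries the strongest Lhx6 peak lay 312 and 245 bp from a listed start. In the second wild-type library a peak inside the gene, 9753 bp downstream of a start, and the peak over the starts had nearly the same fold enrichment over background (16.8 and 16.7). In the second BAP1 knockout library the inner peak was listed at 22.7 and the one over the starts at 14.8. Lhx8 (gene ID 16875, chromosome 3, 154306288 to 154330560) had 8.52 and 10.1 kb in the wild-type libraries and 8.27 and 9.70 kb in the BAP1 knockout libraries. Each BAP1 knockout value of Lhx8 was below the wild-type value of the same number. Its RNF2 lay over the start and the adjacent noncoding gene AI606473, and at the 5′ end of the gene, with no peak over its 3′ part.

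Isl1 and Isl2 specify motor neurons, and Isl1 also acts in cardiac progenitors and pancreatic islets. Isl1 (gene ID 16392, chromosome 13, 116298270 to 116309688) had 18.3 and 21.4 kb in the wild-type libraries and 17.6 and 21.4 kb in the BAP1 knockout libraries. In both second libraries a single peak, of 22943 and 22487 bp, covered 100.0% of the Isl1 window, so no longer coverage could be measured inside it. In the first libraries the same stretch was split into 4 peaks in each genotype. Isl2 (gene ID 104360, chromosome 9, 55538677 to 55547667) had 8.08 and 12.2 kb in the wild-type libraries and 8.67 and 12.0 kb in the BAP1 knockout libraries. The groups of Isl2 and of Isl1 overlapped.

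**Figure D3:**
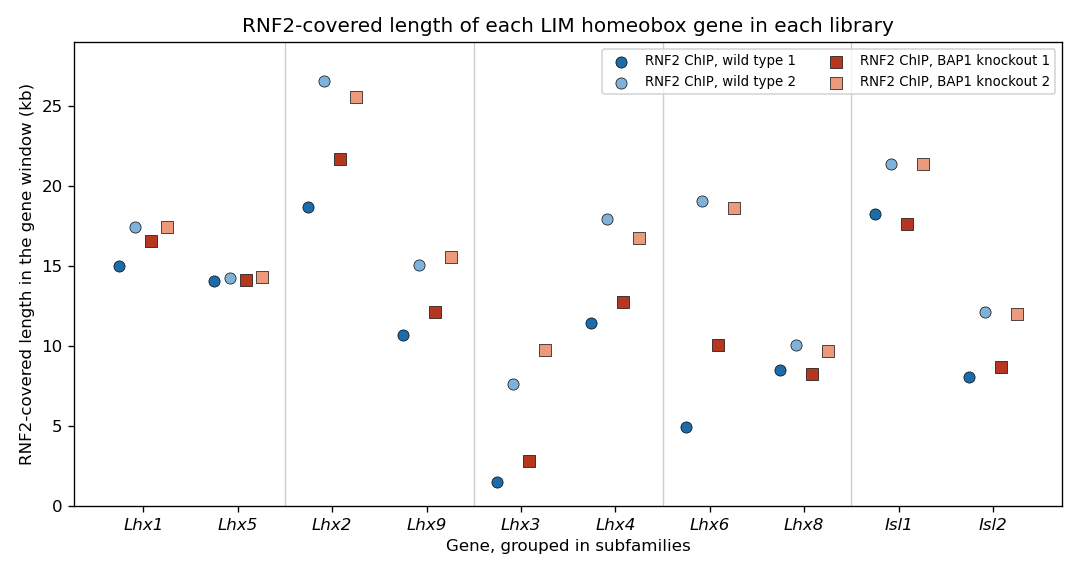
RNF2-covered length in the window in kb (y axis) for each gene (x axis, grouped by subfamily), with 1 point for each wild-type (circles) and BAP1 knockout (squares) library. The second library of a genotype lies above the first at all 10 genes, and at no gene do both squares lie above both circles.

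Fold enrichment, the caller's ratio of tag pileup at the summit to the local background, placed the members high in each RNF2 list. The best peak of each gene had a median fold enrichment of 12.9 (8.26 to 22.0) in the first and 17.6 (12.8 to 22.4) in the second wild-type list, whose own medians were 4.06 and 3.21. In BAP1 knockout the medians were 22.2 (15.2 to 31.6) and 21.3 (18.5 to 23.1), and those of the lists were 4.82 and 3.40. The best peaks ranked above 85.0% to 99.7% of the peaks in the first wild-type list and above 91.9% to 99.8% in the second. For BAP1 knockout the ranges were 89.4% to 99.6% and 95.2% to 99.3%. In the first libraries, Lhx2 led the members in wild type (22.0) and Lhx5 in BAP1 knockout (31.6). Lists differ in length and settings, so these values are not compared between them. The best peak of a whole window was set against all single peaks of a list, which by itself favours a high rank. No rank among the best peaks of other genes with RNF2 was computed. The same limit holds for the ranks of the best BAP1 peaks given further below.

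In the second libraries the fold enrichment of the strongest peaks was limited by the calling. The largest pileup listed was 200.0 in both, shared by 512 wild-type and 800 BAP1 knockout peaks. With at most 1 tag kept per position (per the file headers), on either strand, and each tag extended to 100 bp, 200 is the most the caller can count. At the best peak of a gene it was 170.0 to 200.0 in the second wild-type and 190.0 to 200.0 in the second BAP1 knockout library, with 9 and 9 of the 10 genes at the limit, so no order of the genes is read from these values. The first libraries, with fragments of 297 and 323 bp, listed up to 409.4 and 470.8, and the members reached 201.5 and 378.3 there. Peak width is not capped in this way.

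BAP1 knockout was compared with wild type to ask whether RNF2 binding at these genes differs once the opposing enzyme is lost. No gene was gained (a peak in both BAP1 knockout and no wild-type library; 0.11% of all genes) or lost (the reverse; 0%): all 10 held RNF2 in both libraries of each genotype. Summed over the 10 genes, the covered length was 111 and 162 kb in wild type (137 ± 35.8, SD, n = 2) and 125 and 161 kb in BAP1 knockout (143 ± 25.8, SD, n = 2). The difference of 6.50 kb was smaller than the spread between libraries of 1 genotype (two-sided exact permutation test, p = 1, smallest possible 0.33). Within the first pair the sum was 13.6 kb higher in BAP1 knockout, and within the second it fell by 0.559 kb. The sign of the mean difference rested on single libraries: it was -18.8 kb without the first wild-type and -11.7 kb without the second BAP1 knockout library.

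The first pair and the second pair gave different counts of genes wider in BAP1 knockout. Covered length was higher in the first BAP1 knockout library than in the first wild-type library at 8 of 10 genes, against 42.4% of the 14776 genes with RNF2 in any of the 4 libraries and 93.8% of the 3082 with RNF2 in all 4. In the second pair it was higher at 3 of 10, against 86.3% and 73.3%. It was lower at 6 and equal at Isl1, whose window was 100.0% covered in both second libraries. Lhx1 counted as lower with 99.5% of its window covered in wild type and 99.4% in BAP1 knockout. Its unclipped peak measured 18228 and 18282 bp. At these genes the window left little or no room for a higher value. Covered length was higher in both pairs at 3 of 10, namely Lhx3, Lhx5 and Lhx9, against 36.4% and 70.6%. At Lhx5 the differences were only 70 and 49 bp, and its peak ran beyond the window. Without the second wild-type library, or without the second BAP1 knockout library, the count of 3 became 8. Among the 611 genes whose mean wild-type length was at least that of Lhx3, the shares were 88.1% in the first pair, 53.4% in the second and 52.4% in both. This last set was defined after its values were seen.

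The size of the difference varied widely between genes. In the first pair the median was 1.29 kb over the 10 genes (0.872 kb over the other 3072 genes with RNF2 in all 4 libraries), from -0.656 kb at Isl1 to 5.17 kb at Lhx6. In the second pair it was -0.0705 kb (0.349 kb over the others), from -1.22 kb at Lhx4 to 2.12 kb at Lhx3. Lhx6 and Lhx3 had the largest ratios in the first pair, 2.05 and 1.87, and had been the shortest genes in the first wild-type library. In the second pair Lhx3 had a ratio of 1.28 and Lhx6 of 0.976. Lhx8 was narrower in both pairs (-0.254 and -0.368 kb), as were 0.69% of genes with RNF2 in any and 2.5% of those with RNF2 in all 4 libraries. At 0 of the 10 genes did both BAP1 knockout values exceed both wild-type values, against 5.45% of genes with RNF2 in any and 3.5% of those with RNF2 in all 4.

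**Figure D4:**
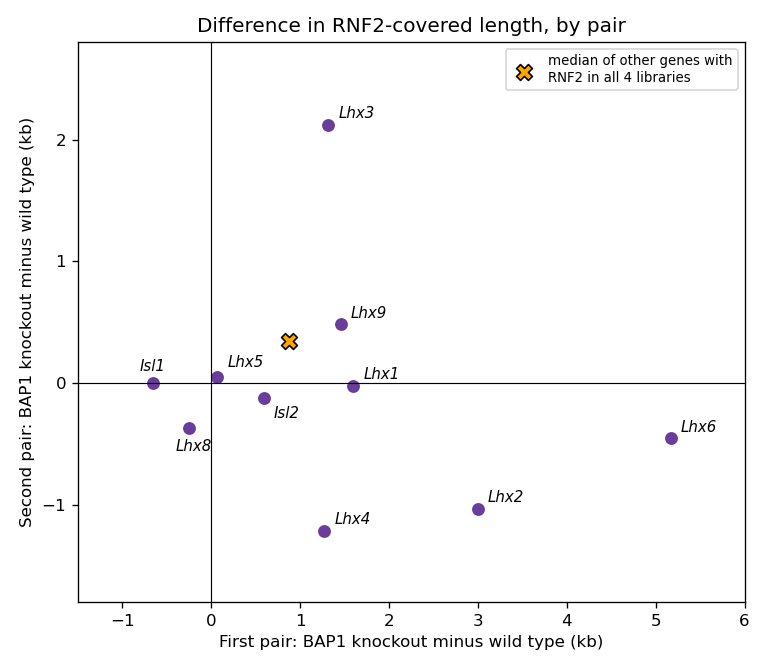
Difference in RNF2-covered length, BAP1 knockout minus wild type in kb, in the first (x axis) and second (y axis) pair of libraries, 1 purple point a gene. The orange cross is the median of the other genes with RNF2 in all 4 libraries (0.872 and 0.349 kb). Lhx3, Lhx9 and, near 0, Lhx5 are above 0 in both pairs; Lhx6, Lhx2 and Lhx4 are above 0 in the first and below it in the second.

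The summed length differed more between replicate numbers (50.6 kb in wild type, 36.4 kb in BAP1 knockout) than between genotypes. The second library was the longer one at 10 of 10 genes in wild type, by a median of 4.25 kb (0.225 to 14.2), and at 10 of 10 in BAP1 knockout, by 3.62 kb (0.204 to 8.55). So were 99.2% (wild type) and 99.2% (BAP1 knockout) of the 3082 genes with RNF2 in all 4 libraries, so the count is near the general share. Depth, caller version and fragment length changed with the number, and their parts cannot be told apart. RNF2 domain width, which joins peaks over gaps of up to 1 kb and is not clipped to the window, gave the same picture. Its median over the 10 genes was 11.7 and 16.7 kb in wild type (14.2 ± 3.56, SD, n = 2) and 12.0 and 16.1 kb in BAP1 knockout (14.0 ± 2.91, SD, n = 2). The difference of -0.177 kb was within the spread (two-sided exact permutation test, p = 1), and its sign changed with the gap that was joined (0.426 kb with none, 0.946 kb with up to 5 kb), without the second wild-type library (2.34 kb) and without the first BAP1 knockout library (1.88 kb). With all RNF2 lists shortened to the 4038 peaks of the highest fold enrichment, 8 of 10 genes were wider in BAP1 knockout in the first pair and 2 of 10 in the second. Of the 5158 genes then occupied in any library, 69.5% and 59.7% were wider. The summed length then differed by 9.85 kb in the first pair and by -7.82 kb in the second (154 kb in wild type, 146 kb in BAP1 knockout), and the mean difference was 1.02 kb, with -1.08 kb for the domain width.

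BAP1 in C91A cells lay at 9 of the 10 genes, all except Lhx3. This compares with 5.08% of all genes, 17.1% of genes with RNF2 in all 4 libraries and 61.4% of the 611 genes whose mean wild-type RNF2 length was at least that of Lhx3. These 611 genes, a set defined after its values were seen, reach down to the 4.56 kb of Lhx3. The 9 genes with BAP1 had 9.30 to 22.7 kb, so the set is not matched to them in RNF2 length. The BAP1 knockout control had 0 peaks at the 10 LIM homeobox genes and a peak at 0.156% of all genes. Its library held 12.7 times fewer tags (32.5 against 415 M), and with 1 library on each side there is no test. The BAP1 peaks were weak: none at these genes had a −log10 q above 8.70, so a minimum of 10 leaves 0 of the 10 genes and 24 peaks in the list. The 9 genes held 65 peaks, 2.71% of the 2395 in the list, with a median of 8 peaks per gene against 1 over the 1097 other genes with BAP1. BAP1 covered a median of 1631 bp of the windows of the 9 genes and 228 bp over those others. Of all 1106 genes with BAP1, 526 had RNF2 in all 4 libraries, as did each of the 9. Neither median was computed for genes of similar RNF2 length.

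**Figure D5:**
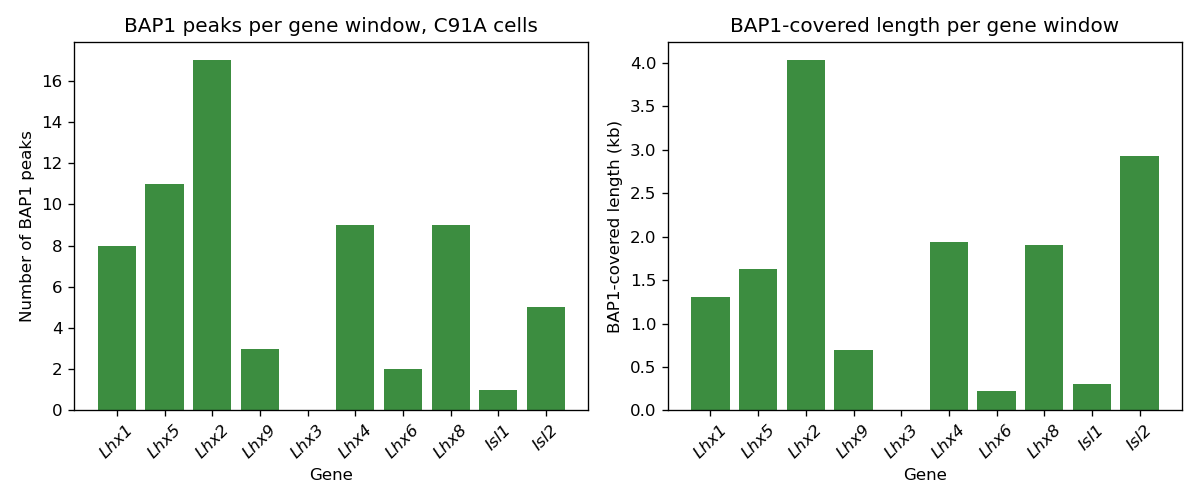
Number of BAP1 peaks of C91A cells (left) and BAP1-covered length in kb (right) in the window of each gene, from 1 library. Lhx2 has the most peaks (17) and the longest coverage (4.03 kb), Isl2 has fewer peaks (5) but 2.93 kb, and Lhx3 has none.

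In the 1 library of BAP1 in C91A cells, the number of peaks ranged from 0 to 17 a gene. Lhx2 held 17 peaks over 4.03 kb, the tenth-highest number of any gene, and Lhx9 held 3 over 0.697 kb. At Lhx2 the strongest peak, 1111 bp long with a fold enrichment of 4.58, had its summit 551 bp from the inner start, and another group of peaks lay at the outer start. Isl2 held 5 peaks over 2.93 kb, among them the strongest of all members (fold enrichment 4.88, higher than 97.4% of the list), while Isl1 held 1 of 305 bp (3.60, 59.6%), 549 bp from its start. Isl1 had the longer RNF2 coverage of this pair and Isl2 the longer BAP1 coverage.

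Lhx4 held 9 BAP1 peaks over 1.94 kb (best fold enrichment 4.60), and Lhx3 none. Lhx8 held 9 over 1.91 kb (4.22), and Lhx6 only 2 over 0.225 kb (3.45, above 45.1% of the list). The nearest Lhx6 peak had its summit 9 bp from a listed start. Lhx1 and Lhx5 had similar numbers, with 8 peaks over 1.30 kb (3.99) and 11 over 1.63 kb (4.29).

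All 65 BAP1 peaks overlapped RNF2 peaks in each of the 4 lists. Over the whole BAP1 list the share was 77.2% and 88.8% for the wild-type libraries and 79.7% and 93.2% for BAP1 knockout. The 9 genes hold long RNF2 peaks in all 4 lists, so an overlap was likely there beforehand. The whole list includes BAP1 peaks at genes without RNF2 in all 4 libraries. No share was computed for genes of similar RNF2 length, and 17 of the 65 peaks lay at Lhx2 alone. Of the 65 peaks, 57 touched the gene span itself. BAP1 peaks were short, with a median of 120 bp over the list, and were called with a fragment length of 50 bp, against 297 and 323 bp in the first and 100 bp in the second RNF2 libraries. Some neighbouring BAP1 peaks lay close together, and whether the number of peaks depends on the calling was not tested. BAP1 was mapped in C91A cells and RNF2 in cells of other genotypes, so this overlap is between different cells.

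BAP1 peaks overlapped 5 of the 13 promoters of 250 bases: those of Lhx1 and Lhx8, both of Lhx2, and the outermost of Lhx6. Of all 21263 promoters, 1.89% held a BAP1 peak, as did 7.49% of the 1548 under RNF2 of all 4 libraries. A stretch under a BAP1 peak is shown for Lhx1 and for Lhx8, whose promoters differ most in CpG count among these 5, with every CpG in capitals.
Lhx1 (chr11:84525613-84525680, minus strand): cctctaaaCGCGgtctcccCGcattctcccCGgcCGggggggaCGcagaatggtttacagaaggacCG
Lhx8 (chr3:154330561-154330653, minus strand): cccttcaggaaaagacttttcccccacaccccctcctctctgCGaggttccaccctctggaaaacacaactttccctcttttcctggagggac
The Isl1 promoter, with the most CpGs of all (33, more than 94.9% of all promoters), held RNF2 in all 4 libraries and no BAP1 peak, which lay further upstream.

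Among 12 other genes of the LIM pathway (LDB1 and its partners, LIM-only proteins and the remaining LIM homeodomain genes), RNF2 covered both LIM homeodomain genes and was short or absent at Ldb1, Ldb2 and Rlim. RNF2 lay in both wild-type libraries at 7 of the 12 listed genes: Lmx1a, Lmx1b, Lmo1, Lmo2, Lmo4, Ssbp2 and Ssbp4. Among all protein-coding genes the share was 14.5%. Lmx1b, which patterns the dorsal limb, had 14.9 and 39.1 kb in the wild-type libraries and 20.3 and 30.7 kb in the BAP1 knockout libraries. Lmx1a, a roof plate and midbrain factor, had 5.91 and 10.6 kb against 7.66 and 10.1 kb. Ldb1, the cofactor that binds LIM domains, had no RNF2 in the first library of either genotype, and 0.924 and 1.34 kb in the second wild-type and BAP1 knockout library. Ldb2 and Rlim, a ubiquitin ligase that acts on LDB1, had no peak in any of the 4. Lmo4, a LIM-only protein that competes for LDB1, had 1.23 and 8.80 kb in the wild-type libraries and 4.46 and 9.85 kb in the BAP1 knockout libraries. BAP1 lay at 3 of the 12, Lmx1a, Lmx1b and Lmo2, against 5.08% of all protein-coding genes and 17.1% of genes with RNF2 in all 4 libraries. In both pairs 4 of the 12 were wider in BAP1 knockout. Of genes with RNF2 in any of the 4 libraries 36.4% were, a share near this count, and of those with RNF2 in all 4, 70.6%.

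Transcription factors that act together with LIM homeodomain proteins were mostly under RNF2 too. Both wild-type libraries held a peak at 14 of 16 such genes, with a median covered length of 8.84 and 12.8 kb, and BAP1 lay at 11 of 16. The shares over all protein-coding genes were 14.5% for RNF2 and 5.08% for BAP1. For BAP1 the share was 17.1% of genes with RNF2 in all 4 libraries. It was 61.4% of the 611 genes with a mean wild-type RNF2 length of at least that of Lhx3, a share near this count. These 16 genes were listed with earlier results of these data known. Mnx1, which marks motor neurons, had 8.59 and 14.4 kb in the wild-type libraries and 11.7 and 14.1 kb in the BAP1 knockout libraries. Neurog2, a proneural factor that acts with Isl1 and Lhx3, had 9.18 and 12.7 kb against 9.64 and 12.5 kb. In both pairs 4 of the 16 were wider in BAP1 knockout. This compares with 36.4% of genes with RNF2 in any and 70.6% of those with RNF2 in all 4 libraries.

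Genes outside the family with the most similar profile were homeobox genes as well. Likeness was the Euclidean distance of log2(covered bp + 100) over the 4 RNF2 libraries and the C91A library to the median profile of the 10 genes. The 5 nearest were Barhl2 (0.135), Tlx1 (0.135), Emx2 (0.242), Six2 (0.291) and Hmx1 (0.299). Barhl2 had 11.3 and 15.6 kb of RNF2 in wild type, 12.5 and 15.6 kb in BAP1 knockout and 1.58 kb of BAP1. Of the members, Lhx4 lay closest to their own median (0.419) and Lhx3 farthest (5.44). A small distance describes the lengths in these 5 libraries and nothing further.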

How the data were processed

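Chromatin sheared to 200 to 700 bp was sequenced in 50 bp single-end reads, per the labels' protocols. The submitters' processing notes name GSNAP, MACS2 and the build GRCm38 (mm10), with no version for GSNAP. The 14 samples are 7 ChIP libraries and their inputs. Per the file headers, MACS2 compared each ChIP library with its own input and kept peaks under a q-value of 0.05. For each peak the authors deposited the pileup signal at the summit, −log10 of the q-value, and the fold enrichment (a ratio to the local background).

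Peaks of the main chromosomes were joined here to RefSeq gene spans (leaving out 108 genes listed below 3 Mb, Y excepted), with an overlap of at least 1 bp. Covered length and domain width were computed with Python 3.11.15, numpy 2.4.6 and pandas 2.3.3, checked on simulated data. Sums over libraries were compared by exact permutation. Alternatives were other windows, gaps, −log10 q of at least 10, summits, equal list lengths and leaving out libraries. All 10 members are named; other genes are named by list order or likeness. Members and lists were chosen with earlier results of these data known.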

Additional observations from a re-analysis of the deposited data

How the results depend on the processing

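Of 50 recomputed values, 41 kept their direction and, for counts, stayed within 1.5 times the reported value. Some of the 41 could not change. The wild-type count does not use the BAP1 knockout libraries that were left out, and the replicate block keeps the mean difference as it is. The number of genes with RNF2 in both wild-type libraries stayed at 10 and that of genes gained or lost at 0 under each alternative. The summed covered length, BAP1 knockout minus wild type (6502 bp), ranged from -18778.5 to 31782.5 bp when 1 library was left out; it was -18778.5 bp without the first wild-type and -11717.5 bp without the second BAP1 knockout library. The median domain width (-177.2 bp) was 426 bp with no gap joined and 945.8 bp with gaps of up to 5 kb joined, and ranged from -2694.2 to 2339.8 bp when 1 library was left out (2339.8 bp without the second wild-type, 1879.5 bp without the first BAP1 knockout library). With lists of equal length, the summed length and the domain width differed by 1017 and -1076.8 bp. The count of genes wider in both pairs (3) ranged from 3 to 8 without 1 library, being 8 where only the first pair was left. With −log10 q of at least 10, BAP1 was listed at 0 of the genes: 24 peaks of that list pass it, and the best peak of a member had 8.70. With the replicate number as a block, the differences were the same 6502 and -177.2 bp (exact sign-flip p = 1, smallest possible 0.5); the numbers share only a label, and same-numbered libraries had deviations correlated at 0.18 over 14776 genes.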
